A study of Mus musculus with 2 samples.

Results

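The 10 genes described here are BC018473, Gm5900, Gm4955, Acvrl1, Hddc3, Rpgrip1, Apobec3, Mid1, Gdpd3 and B930036N10Rik, of 13211 genes listed in 2 sc-RNA-seq libraries of mouse bone marrow. They were chosen by name, on measured values of these same libraries, because their level differed between the libraries in many cell classes. The direction of each difference and its presence in several classes are therefore a description and carry no test. The Col1a1fspKO library came from Fsp1-Cre;Col1a1flox/flox mice, in which the promoter of Fsp1 (S100a4) drives the recombinase against the floxed type I collagen gene Col1a1. The WT library came from littermates that were Cre-negative and also Col1a1flox/flox, so both groups carried the floxed alleles. The mice were 2 months old, the marrow of 2 mice was pooled into 1 library per genotype, and live cells were sorted. Genotype, pool and library can therefore not be told apart, and no test between genotypes was possible.

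Each captured mRNA molecule carried a unique molecular identifier (UMI), and levels are given as UMIs per 1000000 UMIs of the cells summed (CPM). The chemistry reads the 3′ end of a transcript, so 1 molecule gives 1 UMI whatever its length. Col1a1fspKO held 8647722 UMIs in 1309 cells and WT 8624469 UMIs in 1169 cells, with medians of 4954 and 5534 UMIs per cell, and 2 cell barcodes occurred in both. Cells were placed in 13 classes by marker genes that include none of the 10 genes, and 120 cells stayed ungated. In each class the leading genes fitted its name, except that cells gated as macrophages held 275613 CPM (Col1a1fspKO) and 255162 CPM (WT) of neutrophil markers against 427 and 413 CPM of the macrophage markers, and their leading gene, Cxcl12, marks stromal cells. Cxcl12 was at 0 UMIs in Col1a1fspKO, so it led this class through WT cells alone. Values of these macrophage-gated cells are therefore those of a mixture, which differed in this gene between the libraries. Mature neutrophils made up 10.7% of Col1a1fspKO cells and 5.56% of WT cells. Col1a1 itself, the targeted gene, had 3 UMIs in Col1a1fspKO and 0 in WT, too few to check the labels in marrow cells. S100a4 had 2026 and 2184 UMIs. Intervals are exact 95% intervals, Poisson for a level, binomial for a ratio, Clopper-Pearson for a share, and cover counting error only.

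The 10 genes have no pathway in common. Gdpd3 belongs to the glycerophosphodiester phosphodiesterase family and releases lysophosphatidic acid from lysophospholipids, Hddc3 is an HD-domain hydrolase that removes a phosphate from NADPH, Apobec3 is a cytidine deaminase that restricts retroviruses, and Mid1 is a microtubule-bound ubiquitin ligase that acts on protein phosphatase PP2A. Acvrl1 is a type I receptor for bone morphogenetic proteins, best known from endothelial cells, and Rpgrip1 anchors proteins at the base of the photoreceptor cilium. Gm4955 is an older symbol of Ifi206, a member of the interferon-inducible Ifi200 (PYHIN) family of DNA sensors. BC018473 and B930036N10Rik are annotated as antisense RNAs, and Gm5900 as a processed pseudogene.

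The sequence of Gm5900 is shown first, because it bears on what its counts mean. In GENCODE M21 (build GRCm38) the pseudogene is a single stretch of 375 bases on the minus strand of chr7:104949915-104950289. Its whole length matched the coding sequence of Lamtor3, stop codon included, at 373 of 375 bases. Lamtor3, on the plus strand of chr3:137918506-137928900, encodes a scaffold subunit of the Ragulator complex on late endosomes. The 2 differences are C111T and G336A, written with the Lamtor3 base first and counted from the first base of the reading frame. The stretches around them, from the GENCODE transcripts, 5′ to 3′ with the differing base in capitals, read as follows.
Gm5900, bases 86 to 136: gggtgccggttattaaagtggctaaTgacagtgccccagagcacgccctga
Lamtor3, bases 86 to 136: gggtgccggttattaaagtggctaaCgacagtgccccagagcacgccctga
Gm5900, bases 311 to 361: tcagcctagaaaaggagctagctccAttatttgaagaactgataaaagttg
Lamtor3, bases 311 to 361: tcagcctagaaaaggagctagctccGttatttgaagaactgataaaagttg

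Gm5900 had 10 UMIs in Col1a1fspKO (1.16 CPM, interval 0.555 to 2.13) and 234 in WT (27.1 CPM, 23.8 to 30.8), a ratio of 0.0426 (0.0202 to 0.0798). For Lamtor3 the ratio was 1.34 (1.17 to 1.53), from 523 UMIs against 389 in WT, so the parent gene went the other way. Summed over both genes, 533 UMIs stood against 623, a ratio of 0.853 (0.759 to 0.959). A read that covers neither difference cannot tell the pseudogene from the coding sequence of its parent. The split of UMIs between them is therefore uncertain. The sum does not depend on that split, but it leaves out any read that was counted for neither gene. In WT, Gm5900 UMIs were found in all 13 classes, at levels from 12.7 CPM in mature neutrophils (3 UMIs) to 50.2 CPM (20.2 to 103) in basophils, eosinophils and mast cells (7 UMIs), and the intervals of all 13 overlapped, so no class stood apart. In Col1a1fspKO such UMIs occurred in 5 classes, with 4 UMIs in pro-B and pre-B cells against 32 in WT, 2 against 30 in myeloid progenitors and 1 against 36 in monocytes. After thinning each cell to 2500 UMIs, 0.306% of Col1a1fspKO cells and 6.76% of WT cells held a Gm5900 UMI (0.764% and 17.6% before thinning). The genes whose levels over 25 units of class and library were most like those of Gm5900 were Eif3j1 (Pearson r = 0.767) and Sacm1l (r = 0.752). Here and below, such a unit is a class in 1 library with at least 20 cells, r is on log2(CPM + 10), and the units share libraries. Such an r includes the shift between the libraries for which the members were chosen, and is a description. Eif3j1, with 126 and 460 UMIs, is shifted too.

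Over all cells, 7 of the 10 genes were lower and 3 were higher in Col1a1fspKO. BC018473, which is not listed for Col1a1fspKO, is taken as 0 UMIs there, and the others had between 7 and 667 UMIs in Col1a1fspKO and between 10 and 826 in WT. Among the 9725 genes with at least 50 UMIs in both libraries together, 0.535% were lower in Col1a1fspKO by 2-fold or more and 0.648% were higher. The median log2 ratio of those genes was -0.04, against log2 ratios from -7.07 (a bound) to -2.24 for the 7 lower members and from 2.05 to 3.07 for the 3 higher ones. Because the members were selected on this contrast, nothing is read from that distance.

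**Figure D1:**
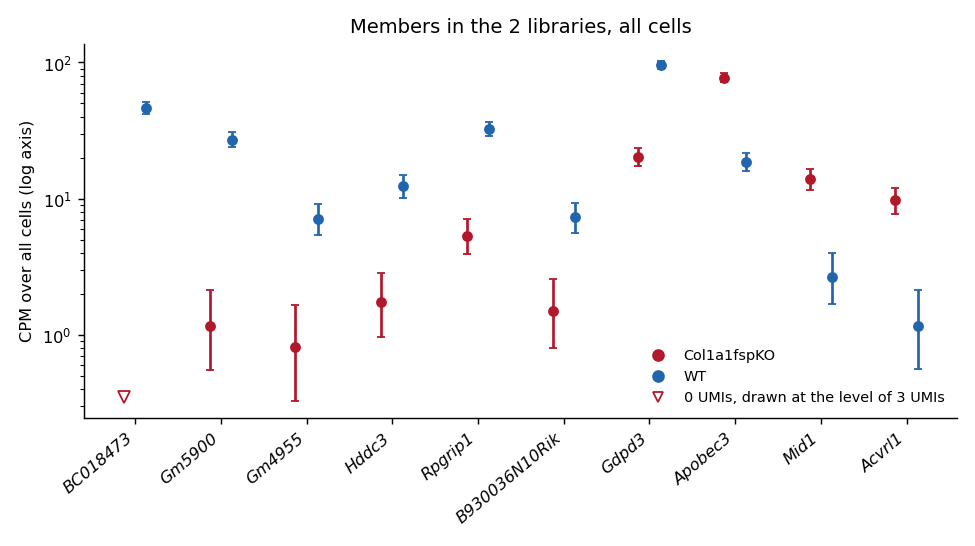
Level of each of the 10 genes over all cells (CPM, log axis) in Col1a1fspKO (red) and WT (blue), 1 library each, with exact Poisson 95% intervals as bars; the open triangle marks 0 UMIs of BC018473 in Col1a1fspKO, drawn at the level of 3 UMIs. The intervals of the 2 libraries do not overlap for any of the 10 genes.

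By class, 64 of the 130 pairs of a member and a class had at least 10 UMIs over both libraries. The ratio was past 2-fold in the direction of that member in 63 of them and in the opposite direction in 0. Over all genes with at least 50 UMIs, 11.3% of the 72517 such pairs were past 2-fold in either direction. In 18 of the 64 pairs all UMIs came from 1 library. A pair that reaches the minimum through 1 library alone has to differ, so these counts describe the choice of the genes. Of the 10 members, 9 were past 2-fold in the same direction in every class with enough UMIs, where there were at least 3 such classes. This held for 0.207% of 8676 genes, which is 18 genes, so 9 others share the pattern: 4933404O12Rik, BC026585, Bard1, Eif3j1, Olfml2b and Pogk were lower, and BC094916, Cxcl10 and Ly6c1 higher, in Col1a1fspKO. These 9 were named after their values had been seen. Pogk shares the pattern by class only, in 3 classes. Over all cells it had 28 UMIs in Col1a1fspKO and 40 in WT, which is not past 2-fold. The exception among the members was Acvrl1. The call rests on the full counts. In cells thinned to 2500 UMIs, 11 of 56 such pairs, in 8 of the members, were no longer past 2-fold. Of those 11 pairs, 9 had 0 UMIs left in 1 library. With Leiden clusters in place of gates, 1 of 59 pairs was no longer past 2-fold, Rpgrip1 in immature and mature B cells (0.784). The clusters took 11 of the 13 class names, and 1697 of 2358 gated cells lay in a cluster of their own class.

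**Figure D2:**
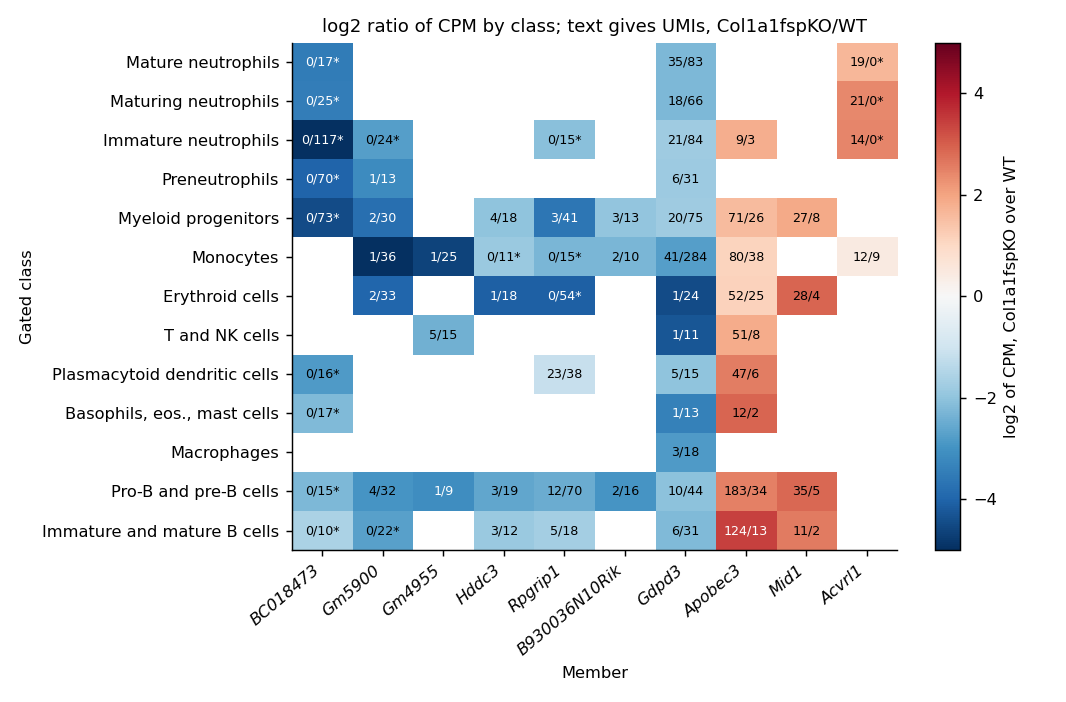
Ratio of CPM, Col1a1fspKO over WT, on the log2 scale (colour) for each gene (columns) in each gated class (rows), drawn where both libraries together held at least 10 UMIs; the text in a cell gives the UMIs of Col1a1fspKO and WT, and an asterisk marks a cell with 0 UMIs in 1 library, where 3 UMIs stand in for 0. The 7 lower genes are blue and the 3 higher genes red in each cell drawn, and Acvrl1 in monocytes (12 and 9 UMIs) is the palest.

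Among the enzymes, Gdpd3 gave the most complete picture. It lies on chr7:126766334-126775649 (plus strand) and was the 1 gene of the 10 with at least 10 UMIs in all 13 classes. It had 175 UMIs in Col1a1fspKO (20.2 CPM, 17.4 to 23.5) and 826 in WT (95.8 CPM, 89.4 to 102), a ratio of 0.211 (0.179 to 0.249). The ratio was below 1 in 13 of 13 classes, and its interval excluded 1 in each, which describes the choice of Gdpd3 and carries no test. The order of the classes within a library was not part of the choice, and it was alike in both: over 12 classes with at least 20 cells in each library, Spearman's rho between the libraries was 0.923, given as a description over classes that share libraries. The highest level was that of mature neutrophils, at 351 CPM (279 to 435) in WT and 73.6 CPM (51.2 to 102) in Col1a1fspKO. Maturing neutrophils followed with 46.3 and 221 CPM, and their intervals overlapped those of mature neutrophils in both libraries. Monocytes came next, with 208 CPM in WT against 30.8 CPM in Col1a1fspKO. By point level, Gdpd3 was thus highest in late neutrophils and monocytes in either library. In Col1a1fspKO the interval of monocytes (22.1 to 41.8) overlapped those of maturing and immature neutrophils (13.8 to 34.1 for the latter). In WT it overlapped that of macrophage-gated cells, so the place of monocytes is not settled by these counts. Erythroid cells were lowest in both, with 1 UMI (0.806 CPM) against 24 (18.1 CPM). The interval of the monocyte ratio, 0.148 (0.104 to 0.206), overlapped those of all 4 neutrophil stages taken singly. Their ratios ran from 0.209 (0.117 to 0.356) in maturing to 0.293 (0.173 to 0.478) in immature neutrophils. The 4 stages together gave 0.298 (0.229 to 0.384), above each single stage, so that value also carries the mix of stages. No difference between monocytes and neutrophils is read from it. After thinning, 5.65% of Col1a1fspKO cells and 24.6% of WT cells held a Gdpd3 UMI (12.0% and 38.8% before). Erythroid cells, the class lowest in Gdpd3, had shares of 0% and 6.0% at median depths of 9471 and 11794 UMIs per cell. Its levels were most like those of Rab5c (r = 0.733), a small GTPase of early endosomes, and E230001N04Rik (r = 0.726).

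Hddc3, on chr7:80343104-80350547 (plus strand), had 15 UMIs in Col1a1fspKO (1.74 CPM, 0.971 to 2.86) and 107 in WT (12.4 CPM, 10.2 to 15), a ratio of 0.140 (0.0756 to 0.241), or 0.0510 with cells thinned to equal depth. Of the 5 classes with enough UMIs, erythroid cells stood at 1 against 18 UMIs, pro-B and pre-B cells at 3 against 19, myeloid progenitors at 4 against 18, monocytes at 0 against 11, and immature and mature B cells at 3 against 12, where the interval of the ratio (0.0500 to 1.02) includes 1. Neutrophils of all stages held 1 UMI in Col1a1fspKO and 15 in WT. In WT the highest level was in plasmacytoid dendritic cells (35.8 CPM, from 6 UMIs, 13.1 to 77.8), but its interval overlapped those of the B cell classes, so no order among them can be given. On the genome Hddc3 overlaps Man2a2 on the other strand, which had 79 and 74 UMIs. A stretch of 652 bases of 1 Hddc3 transcript was 94.9% identical to a transcript of Acer3, which had 218 and 209 UMIs. Neither of these genes differed by 2-fold. The genes most like Hddc3 were 4933404O12Rik (r = 0.725) and Ly6k (r = 0.714).

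Rpgrip1, on chr14:52110704-52163546 (plus strand), had 46 UMIs in Col1a1fspKO (5.32 CPM, 3.89 to 7.10) and 282 in WT (32.7 CPM, 29.0 to 36.8), a ratio of 0.163 (0.116 to 0.223), or 0.336 with cells thinned to equal depth. Plasmacytoid dendritic cells, the interferon-producing lineage, had the highest level in both libraries: 227 CPM (160 to 311) from 38 UMIs in WT and 103 CPM (65.3 to 155) from 23 UMIs in Col1a1fspKO. Their ratio was 0.455 (0.259 to 0.783), but 0.721 with cells thinned to equal depth, which is not past 2-fold, and the thinned shares of cells with a UMI, 26.1% (14.3 to 41.1) and 40% (23.9 to 57.9), overlap. Erythroid cells held 0 UMIs in Col1a1fspKO and 54 in WT, at least 16.8-fold lower, and the upper end of the ratio's interval, 0.0756, lies below the interval of plasmacytoid dendritic cells. By full counts the size of the Rpgrip1 difference was thus unequal between these classes, as a description of values on which the genes were chosen. Thinned, erythroid cells gave a bound of 0.258. A single WT erythroid cell held 13 of the 54 UMIs. Pro-B and pre-B cells held 12 against 70 UMIs, a ratio of 0.180 (0.0887 to 0.334), and myeloid progenitors 3 against 41. Neutrophils of all stages held 0 against 25 UMIs. Rpgrip1 overlaps Supt16 on the other strand, a histone chaperone gene with 375 and 477 UMIs and a ratio of 0.784 (0.683 to 0.900). Its levels were most like those of Net1 (r = 0.826) and Gbas (r = 0.795), which had ratios of 0.907 and 0.733.

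Of the antisense RNAs, BC018473 had the widest separation. It lies on chr11:116752167-116759373 (plus strand) and had 401 UMIs in WT (46.5 CPM, 42.1 to 51.3). With 0 UMIs in Col1a1fspKO it was at least 134-fold lower there, taking 3 UMIs over the library in place of 0. The tables list few genes seen in under 3 cells (77 of 12760 in Col1a1fspKO), so an unlisted gene may have had a few UMIs. In WT it was found in all 13 classes. Preneutrophils had the highest level, 166 CPM (130 to 210) from 70 UMIs, followed by basophils, eosinophils and mast cells with 122 CPM (71.1 to 195) and immature neutrophils with 106 CPM (87.7 to 127). The intervals of the first and the third do not overlap, and that of the second overlaps both. Erythroid cells (3.01 CPM, 4 UMIs) and monocytes (4.4 CPM, 6 UMIs) were lowest. In neutrophils of all stages 229 WT UMIs stood against 0, at least 77.6-fold lower in Col1a1fspKO. After thinning, 9.92% of WT cells (8.27 to 11.8) held a UMI, against 0 of 1309 Col1a1fspKO cells, which by 3 cells in place of 0 allows up to 0.229%, with an exact interval that reaches 0.281%. Before thinning the WT share was 19.8%. In WT erythroid cells, the class with the lowest level, the thinned share was 0% at a median depth of 11794 UMIs. Its levels were most like those of Mon1b (r = 0.704) and Sytl1 (r = 0.627).

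B930036N10Rik, on chr1:171500568-171504111 (minus strand), had 13 UMIs in Col1a1fspKO (1.5 CPM, 0.800 to 2.57) and 63 in WT (7.31 CPM, 5.61 to 9.35), a ratio of 0.206 (0.104 to 0.378). It passed the minimum in 3 classes: pro-B and pre-B cells with 2 against 16 UMIs, myeloid progenitors with 3 against 13, and monocytes with 2 against 10. Below the minimum, basophils, eosinophils and mast cells held 3 against 2 UMIs. The RNA overlaps Alyref2 on the other strand, an RNA export adaptor gene with 156 and 138 UMIs. If counting ignored strand, reads of both could not be told apart, and the strand setting is not given in the sources used here. The most similar genes by level were 4933404O12Rik (r = 0.777) and Wdr24 (r = 0.752).

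Gm4955 lies on chr1:173468485-173491041 (minus strand) as Ifi206 and was the rarest of the 10. It had 7 UMIs in Col1a1fspKO (0.810 CPM, 0.325 to 1.67) and 61 in WT (7.07 CPM, 5.41 to 9.09), a ratio of 0.114 (0.0442 to 0.25). T and NK cells had the highest level in both libraries, 81.3 CPM (45.5 to 134) from 15 UMIs in WT and 15.4 CPM (5.0 to 36.0) from 5 UMIs in Col1a1fspKO. Monocytes held 1 against 25 UMIs and pro-B and pre-B cells 1 against 9, while neutrophils of all stages held 0 in both libraries. Part of its transcript of 3047 bases resembles other genes. Bases 1 to 1365, away from the 3′ end that the chemistry reads, were 92.2% identical to Ifi208. Nearer the 3′ end, bases 2132 to 2739 were 97.9% identical to Gm18752. Neither of these genes is listed for the libraries, and whether reads were shared with them was not tested. Its levels were most like those of Maf (r = 0.823) and Prkch (r = 0.819), a transcription factor and a kinase that lymphocytes express, and their UMIs were equal or nearly so in both libraries (29 against 30 and 51 against 51).

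**Figure D3:**
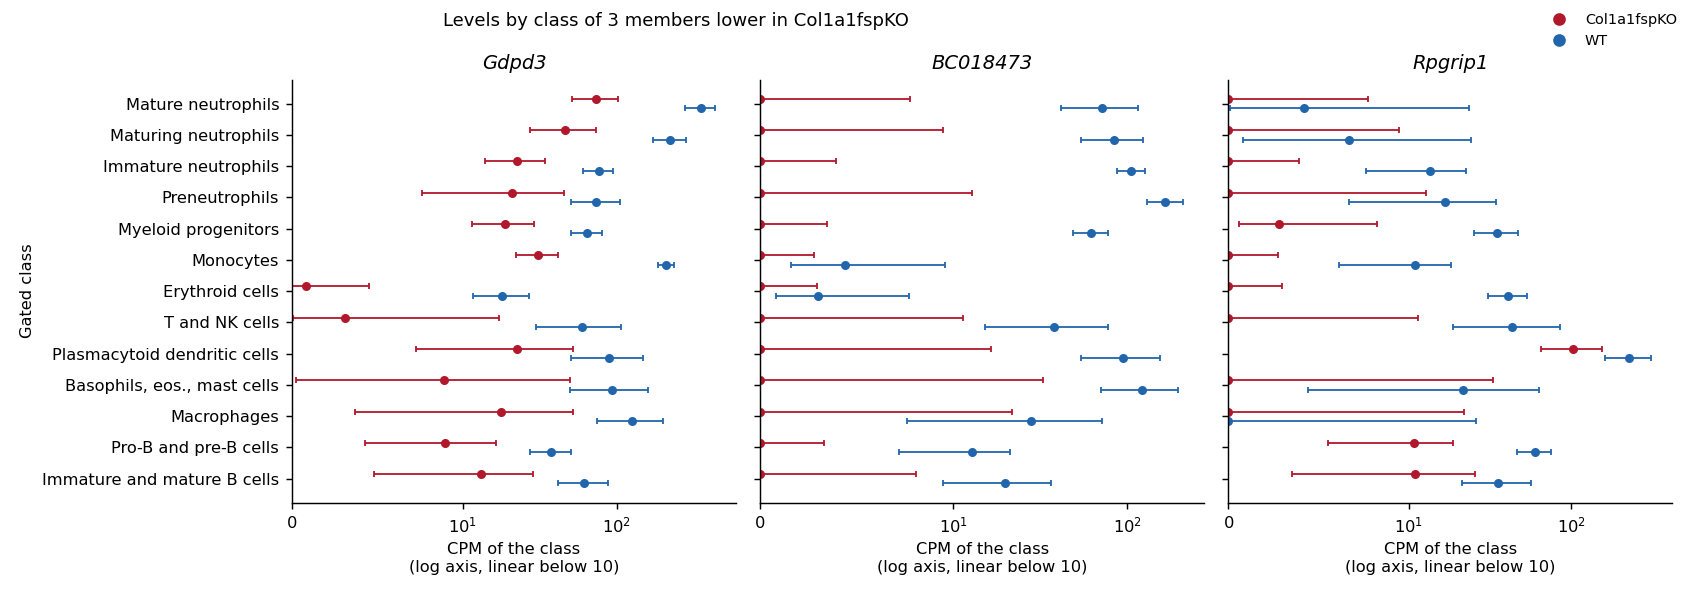
Level of Gdpd3, BC018473 and Rpgrip1 (CPM of the class, log axis that is linear below 10) in each gated class in Col1a1fspKO (red) and WT (blue), with exact Poisson 95% intervals. Gdpd3 is highest in mature neutrophils (73.6 and 351 CPM), Rpgrip1 is highest in plasmacytoid dendritic cells (103 and 227 CPM), and BC018473 is at 0 in each class of Col1a1fspKO.

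Of the 3 genes higher in Col1a1fspKO, Apobec3 (chr15:79891659-79915906, plus strand) was the most abundant. It had 667 UMIs in Col1a1fspKO (77.1 CPM, 71.4 to 83.2) and 161 in WT (18.7 CPM, 15.9 to 21.8), a ratio of 4.13 (3.47 to 4.94). Both libraries had Apobec3 UMIs in all 13 classes. In Col1a1fspKO the level was highest in immature and mature B cells, 271 CPM (226 to 324), then in plasmacytoid dendritic cells, 210 CPM (155 to 280), pro-B and pre-B cells, 164 CPM (141 to 190), and T and NK cells, 157 CPM (117 to 207). The intervals of the first and the third do not overlap. In WT the same 4 classes lay between 25.7 and 43.3 CPM with overlapping intervals, so no order among them can be given there. The ratio was 10.5 (5.94 to 20.4) in immature and mature B cells, 124 against 13 UMIs, and 2.16 (1.45 to 3.27) in monocytes, 80 against 38, but 1.70 there with cells thinned. It was 2.22 (1.36 to 3.74) in erythroid cells. The interval of the first overlaps neither of the other two. By these ratios the Apobec3 difference was larger in immature and mature B cells than in monocytes and erythroid cells. Ratios by class are among the values on which the genes were chosen. With 1 library each, this is a description and carries no test. Neutrophils of all stages, where Apobec3 was lowest, held 24 against 6 UMIs (11.5 and 2.91 CPM), a ratio of 3.93 (1.57 to 11.8). After thinning, 15.2% of Col1a1fspKO cells and 4.19% of WT cells held a UMI (29.9% and 11.7% before), against 1.43% and 0% of mature neutrophils, at median depths of 3138 and 3453 UMIs. Apobec3 overlaps Cbx7 on the other strand, which had 35 against 18 UMIs, a ratio of 1.94 (1.07 to 3.64). Nubpl (r = 0.868) and Gm6483 (r = 0.864) had the most similar levels.

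Mid1 spans chrX:169685199-170005736 (plus strand). It had 120 UMIs in Col1a1fspKO (13.9 CPM, 11.5 to 16.6) and 23 in WT (2.67 CPM, 1.69 to 4.0), a ratio of 5.20 (3.31 to 8.52), or 17.9 with cells thinned to equal depth, which leaves few WT UMIs. Pro-B and pre-B cells held 35 against 5 UMIs, erythroid cells 28 against 4, myeloid progenitors 27 against 8, and immature and mature B cells 11 against 2. The levels of those 4 classes in Col1a1fspKO lay between 22.6 and 31.4 CPM with overlapping intervals. Neutrophils of all stages held 2 UMIs in Col1a1fspKO and 0 in WT, so Mid1 was hardly detected in them in either library. Part of the Mid1 transcript, 1287 bases, was 96.6% identical to the pseudogene Mid1-ps1, which is not listed in the tables. A stretch of 529 bases was 99.2% identical to Gm21742, which is not listed either. Tfpi (r = 0.825) and Ints5 (r = 0.818) had the most similar levels. As a check of the sex of the pools, the Y-linked genes Ddx3y, Eif2s3y, Kdm5d and Uty had ratios between 0.528 and 1.12. Xist had 0 and 3 UMIs.

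Acvrl1 lies on chr15:101128522-101145336 (plus strand). It had 84 UMIs in Col1a1fspKO (9.71 CPM, 7.75 to 12.0) and 10 in WT (1.16 CPM, 0.556 to 2.13), a ratio of 8.38 (4.34 to 18.1), or 22.8 with the classes weighted equally. By class the difference was carried by the neutrophils. Maturing neutrophils held 21 UMIs in Col1a1fspKO (54.0 CPM, 33.4 to 82.5), mature neutrophils 19 (39.9 CPM, 24.0 to 62.4), immature neutrophils 14 (14.9 CPM, 8.14 to 25) and preneutrophils 4 (13.9 CPM, 3.78 to 35.5), and WT neutrophils of each stage held 0. Together this was 58 UMIs in 464 cells against 0 in 385 cells, at least 19.0-fold higher in Col1a1fspKO. In monocytes 12 UMIs stood against 9 (9.02 and 6.60 CPM), a ratio of 1.37 (0.529 to 3.67) that includes 1. In the 9 classes that are not neutrophils 22 stood against 10, a ratio of 2.25 (1.02 to 5.32), and 5 of the 22 were in the macrophage-gated mixture. In WT 9 of the 10 UMIs were in monocytes. The order of the classes therefore differed between the libraries, with maturing neutrophils highest in Col1a1fspKO and monocytes highest in WT. Of the 5 endothelial markers, Cdh5, Kdr and Emcn were at 0 UMIs in the neutrophils of both libraries, Pecam1 had 11 and 5, and Egfl7 3 and 7, while the list summed over all cells had 382 and 376. Of the 5 macrophage markers, C1qa and C1qc were at 0 there, C1qb had 0 and 1 UMIs, Adgre1 1 and 0, and Vcam1 9 and 8. The part of either cell type in the Acvrl1 UMIs was not tested. Summed neutrophil markers were higher in Col1a1fspKO in 7 of the 9 classes that are not neutrophils, for example 19133 against 10606 CPM in erythroid cells, and lower in T and NK cells (22773 against 36570) and in basophils, eosinophils and mast cells (3804 against 23734), and their part in the Acvrl1 UMIs of these classes was not tested. Abcd2 (r = 0.782) and Ly6c1 (r = 0.736), with ratios of 1.52 and 75.6, had the most similar levels.

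**Figure D4:**
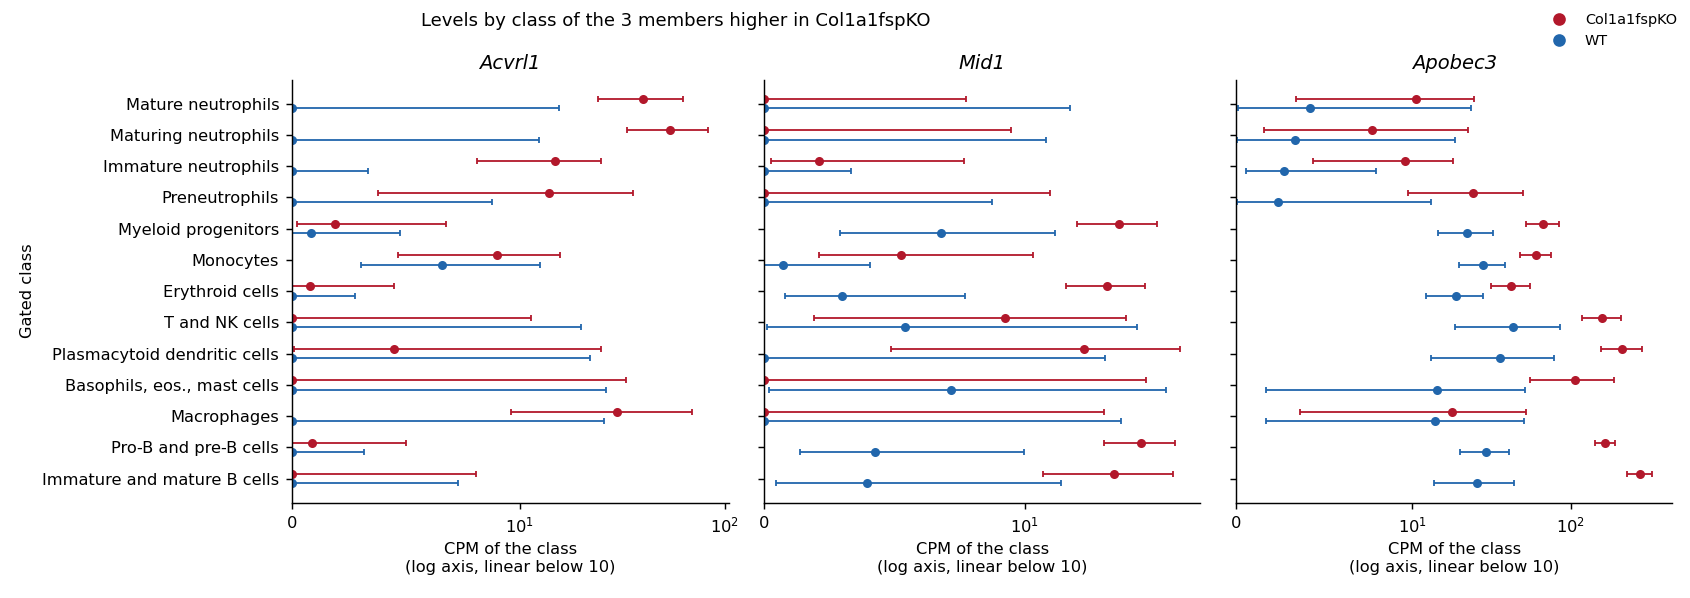
Level of Acvrl1, Mid1 and Apobec3 (CPM of the class, log axis that is linear below 10) in each gated class in Col1a1fspKO (red) and WT (blue), with exact Poisson 95% intervals. Acvrl1 separates the libraries in the rows of mature, maturing and immature neutrophils. Its intervals overlap in preneutrophils (4 against 0 UMIs) and in monocytes. Apobec3 stands at 271 against 25.7 CPM in immature and mature B cells.

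The 6 lists of genes from the pathways and families of the members held 45 entries with at least 50 UMIs, of which 0 were past 2-fold higher and 0 lower. Over all genes 1.18% were past 2-fold in either direction, so a list of this size would hold few such genes, and nothing particular to the lists is read from the count. Among 14 receptors, ligands and mediators of BMP and TGF-beta signalling the median log2 ratio was -0.07, from -0.36 for Bmpr2 to 0.89 for Smad3, and the most abundant were Tgfb1 (1954 and 2091 UMIs) and Id2, a target of the pathway (1576 and 1134). Among 10 deaminases and restriction factors around Apobec3 the median was 0.22, with Ifitm3 (9960 and 8220 UMIs) and Bst2 (1327 and 1161) the most abundant. Ppp2ca, the catalytic subunit of PP2A, had 799 and 995 UMIs, and Mid1ip1 423 and 465, in the list of 6 around Mid1 (median -0.13). Gde1 had 332 and 343 and Abhd4 41 and 46 UMIs in the list around Gdpd3. Samhd1 (1179 and 995) and Nadk (926 and 970) led the 8 around Hddc3 (median -0.11). Among 5 proteins of the ciliary gate the median was -0.48, with Cep290 at 42 against 69 and Iqcb1 at 41 against 42 UMIs.

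On the genome, the 10 genes lie on 6 chromosomes, and the closest pair, B930036N10Rik and Gm4955, are 1.96 Mb apart. Of the 19 nearest listed genes with at least 50 UMIs, 1 on each side of a member where there was one, 0 were past 2-fold, where 1.18% of all genes were, and their ratios ran from 0.818 to 1.54. With so low a share over all genes the count sets the neighbours apart from no other genes. Gdpd3 lies 515 bases from Mapk3 (ERK1), which had 759 and 756 UMIs, a ratio of 1.001 (0.904 to 1.11), and 1306 bases from Ypel3 (1387 and 1180 UMIs), while its own ratio was 0.211. Hddc3 lies between Unc45a (50 and 51 UMIs), 2099 bases away, and Fes (443 and 473). Rpgrip1 lies between Hnrnpc (1231 and 1283), an RNA-binding protein gene, and the chromatin remodeller gene Chd8 (217 and 245). For Apobec3 the flanking genes were Cbx6 (116 and 131) and the ribosomal protein gene Rpl3 (18235 and 18732). Acvrl1 had Galnt6 (34 and 33) and the nuclear receptor gene Nr4a1 (46 and 30) on its sides, the latter with a ratio of 1.53. Neither side of BC018473 differed by 2-fold, with 1810032O08Rik at 73 and 89 and Jmjd6 at 213 and 196. B930036N10Rik had the flanking gene with the highest ratio, the transcription factor gene Usf1 (326 and 211), and Ly9 (95 and 75). Gm5900 had Trim30a (309 and 253) and Fam160a2 (122 and 103) on its sides, and Mid1 had Hccs (254 and 256) on one side.

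Within 500 kb of a member, 4 of 141 such genes were past 2-fold, where 1.18% of all genes were. Of these, 3 lie near Gm4955, in the Ifi200 cluster or beside it, in a window with 7 such genes. Ifi202b, 472 kb away, had 0 UMIs in WT and 136 in Col1a1fspKO, at least 45.2-fold more, and Mndal, 358 kb away, had 1350 and 514, a ratio of 2.62 (2.37 to 2.91). Fcer1a, a mast cell and basophil receptor gene 241 kb away, had 23 and 148, and the share of basophils, eosinophils and mast cells was 0.917% and 1.88% of cells. The family members that flank Gm4955, Aim2 (116 and 99 UMIs) and Ifi204 (240 and 214), did not differ by 2-fold. The other was the antisense RNA Gm37065 near B930036N10Rik, with 29 and 174.

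**Figure D5:**
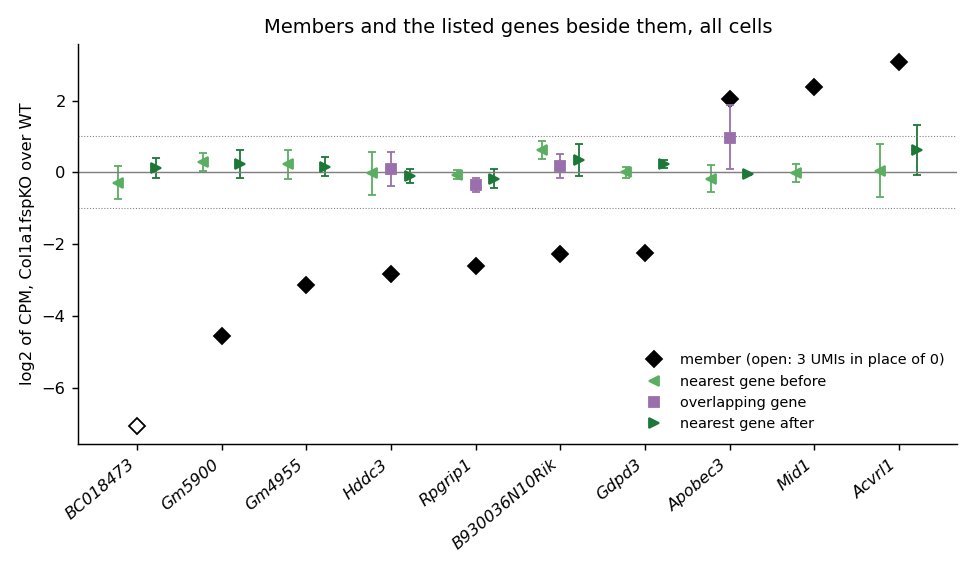
log2 ratio of CPM over all cells, Col1a1fspKO over WT, for each of the 10 genes (diamonds; open where 3 UMIs stand in for 0) and for the nearest listed genes with at least 50 UMIs before and after it (triangles) and listed genes that overlap it (squares), with exact binomial 95% intervals for the neighbours; dotted lines mark 2-fold. The 19 flanking genes lie inside the dotted lines and the 10 members outside.

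Promoter sequence was at hand for 6 of the 10 genes, with 9 start sites in all, each a window of 300 bases. They were searched on both strands for the TATA box (TATAAA), found in 13.6% of all 32851 windows, for the CCAAT box, found in 37.4%, for the GC box (GGGCGG), found in 35.7%, and for a core of the interferon response element (GAAANNGAA), found in 8.56%. Hddc3 and Gdpd3 had 0 matches to any of them. The interferon element core was matched in the window of Gm4955 and in 1 of the 2 windows of Apobec3. The TATA letters were matched in the windows of Gm4955 and Rpgrip1 and in the other Apobec3 window. The GC box was matched in none of the windows. The CCAAT letters were found 3 times in the window of Rpgrip1, once in the other Apobec3 window and in 1 of the 3 of Mid1. A match is a description of letters and not a site. The bases before the start of Gm4955 and Gdpd3 are shown, as a promoter with matches and one with none. They are from RefSeq (GRCm38.p6), 5′ to 3′ on the strand of the gene and outside any exon, with the matched letters in capitals, first the TATA box and then the interferon element core.
Gm4955 (Ifi206), minus strand, chr1:173491319-173491568: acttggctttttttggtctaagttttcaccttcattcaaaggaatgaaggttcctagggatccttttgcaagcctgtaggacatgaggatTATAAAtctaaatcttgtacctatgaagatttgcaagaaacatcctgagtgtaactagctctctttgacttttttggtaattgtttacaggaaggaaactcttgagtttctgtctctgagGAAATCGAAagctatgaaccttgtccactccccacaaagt
Gdpd3, plus strand, chr7:126766164-126766333: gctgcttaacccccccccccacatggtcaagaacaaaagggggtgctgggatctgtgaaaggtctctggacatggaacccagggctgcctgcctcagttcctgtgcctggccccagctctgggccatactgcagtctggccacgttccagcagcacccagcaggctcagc

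Within WT alone, over 13 classes, other genes were mostly the ones closest in level, and these were named after their values had been seen. For Gdpd3 they were S100a6 (r = 0.972) and Ccpg1 (r = 0.933), and Ccpg1 also came first within Col1a1fspKO over 12 classes (r = 0.946). For BC018473 they were Kdm6b (r = 0.860) and again Sytl1 (r = 0.852), and for Gm4955 Nr4a1 (r = 0.959) and again Prkch (r = 0.954). For Gm5900 they were Gm26724 (r = 0.918) and Fam208a (r = 0.913). For Rpgrip1, Hddc3 and B930036N10Rik the closest genes were Hsdl2 (r = 0.943, level with Zfp942), Sft2d3 (r = 0.952) and Tmem194 (r = 0.927). Within Col1a1fspKO the closest to Acvrl1, Apobec3 and Mid1 were D930028M14Rik (r = 0.979), Ktn1 (r = 0.973) and Gar1 (r = 0.975). The names thus depend on which libraries are taken.

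Within a library, pairs of the members were detected in the same cell about as often as their shares give. In thinned WT cells, 22 of 1114 gated cells held both BC018473 and Gdpd3 UMIs, where the product of the shares within each class gives 28.6, and 15 held both Gm5900 and Gdpd3, where it gives 15.6. Apobec3 and Gdpd3 were found together in 17 WT cells, where it gives 12.4. In Col1a1fspKO, 13 of 1244 cells held both Apobec3 and Mid1, where it gives 10.0, and 10 held both Rpgrip1 and Apobec3, where it gives 8.27. These counts are too small to set one pair apart from another.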

How the data were processed

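Marrow cells of Col1a1fspKO and WT mice (2 pooled per library) were profiled with the 10x 3′ v2 chemistry. What the authors deposited are raw, whole-number UMI counts of each gene in each cell from Cell Ranger (version not given in the sources used here) on mm10 (GRCm38), per the labels, which also name Seurat 3.5.3. Per the study's methods cells with 200 to 7000 genes and up to 10% mitochondrial counts were kept, and 0 cells of the tables lay outside. A gene missing from a table was taken as 0.

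A cell was given the class with the highest mean z-score of its markers, log2(1 + UMIs per 10000), if the score was at least 0.5 and led by 0.25; 358 cells lay within 0.25 of a cut-off. Neutrophils and B cells were then split by stage. Shares of cells were taken after each cell was thinned to 2500 UMIs, which left out 0 cells. Doublets were kept; 447 cells passed more than 1 gate. UMIs were summed per class and library. A library at 0 was set to 3 UMIs, counted over the library or class summed, which makes a fold a bound. The members and gene lists were chosen with earlier results of these data known. Named besides the members were the 2 genes most correlated with each, the nearest gene with at least 50 UMIs on each side, and from each list the genes past 2-fold and the 2 most abundant. Positions and transcripts were from GENCODE M21, in which 9 members were found by symbol and 1 (Gm4955) by its current symbol; similar transcripts were found with blastn 2.17.0. The calculations ran in Python 3.11.15 with scipy 1.17.1 and scanpy 1.11.5 and were tested on simulated data. UMI totals were 8647722 and 8624469. The alternatives were other depths, filters, scalings, gates and clusters.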

Additional observations from a re-analysis of the deposited data

How the results depend on the processing

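No paired analysis was possible because each genotype had 1 library and the labels carry no replicate numbers. The direction of all 10 genes over all cells was the same under 8 other settings wherever these gave a value. Of those 78 values, 70 lay within the main counting interval (for BC018473, within 1.5 times its bound or the interval's end). With cells thinned to 2500 UMIs the ratio became 0.0185 (a bound) for BC018473, 0.0510 for Hddc3, 0.336 for Rpgrip1, 17.9 for Mid1 and 0.167 for Gdpd3. With classes weighted equally it became 22.8 for Acvrl1 and 0.259 for Rpgrip1, and as a mean over single cells 0.275 for Rpgrip1. BC018473 gave no value under those 2, having 0 UMIs in Col1a1fspKO. Summed with Lamtor3, an alternative chosen after seeing the data, Gm5900 had a ratio of 0.853. At least 20 UMIs per class left 41 of 42 pairs past 2-fold in place of 63 of 64. Within classes, 155 of 181 values stayed within the main interval or 1.5 times the main ratio, 23 of the 26 that moved were thinned, and 0 changed sides. Pairs with at most 3 UMIs in each library gave no value. Over all genes, 132 lower and 134 higher were past 2-fold with a minimum of 20 UMIs, 11 and 20 with 200, and 285 and 292 at 1.5-fold. At 1.5-fold, 3 of the 44 genes on the lists and 2 of the 19 flanking genes were past the limit. Without thinning, 16 of 20 shares of cells lay outside the interval of the thinned share.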

Other observations

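The sum of genes that mark stromal cells differed between the libraries. The 5 stromal markers summed to 19 UMIs in Col1a1fspKO, where 4 were at 0 and all UMIs were of Lepr. In WT they summed to 151, where 2 (Dcn and Col3a1) were at 0. Col1a2 had 11 of the WT UMIs, and the rest were of Cxcl12 and Lepr, so the sum rests on few genes. The part of this in the 10 genes was not tested. The 5 markers of megakaryocytes and platelets summed to 115 and 112 UMIs.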
